A study of Mus musculus with 30 samples.

Results

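CD4+ T cells of orally tolerised mice were compared with CD4+ T cells of primed mice, the opposite outcomes of meeting one antigen, ovalbumin (OVA). The comparison rests on 6 of the 30 arrays of the series, tolerised replicates 1 to 3 and primed replicates 1 to 3. It covers every gene with 1 symbol in the array annotation, 17097 genes, of which 10322 were tested because 3 or more of the 15 CD4+ arrays showed them above that array's median. All mice were DO11.10 RAG2-/- on the BALB/c background and 8 to 10 weeks old. Without RAG2 the mouse's own receptor genes are not rearranged, so the CD4+ T cells of both groups carry the transgenic receptor for an OVA peptide. Tolerised mice received OVA in the drinking water, at a dose that the labels give both as 50 mg/kg and as 50 mg/ml, and their CD4+ cells came from mesenteric lymph nodes. Primed mice received 100 micrograms of OVA, injected under the skin with complete Freund's adjuvant, and their CD4+ cells were taken from axillary lymph nodes 10 days after immunisation. A further primed group, given 10 mg/kg of control IgG and also sampled from axillary nodes, served as another reference. The remaining CD4+ arrays came from unimmunised animals and from an abatacept-treated primed group. These arrays entered the choice of genes to test and the estimate of spread, but were not compared here. In each group the cells were purified by magnetic negative selection to over 90% per the labels, so a minority of other cells can be present. Node and treatment changed together between the tolerised and primed groups, and their effects cannot be told apart.

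Antigen that arrives through the gut is carried to the mesenteric nodes by dendritic cells, and T cells that meet it there without inflammatory signals may be deleted, become unresponsive (anergic) or turn into regulatory cells, a state called oral tolerance. Dendritic cells of these nodes make retinoic acid from vitamin A, which is known to induce the gut homing receptors of T cells. Antigen in complete Freund's adjuvant is given with mycobacterial products that activate dendritic cells, and the T cells primed in the draining node divide and become helper cells.

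Values are the authors' log2 levels, on which a difference of 1 is a 2-fold change, and each difference is tolerised minus primed. Array medians ran from 4.4555 to 4.511, and a level below them was not shown to be above background. Where the mean of the lower group is below them, a difference is not exact. Among genes named below this holds for Alox15, Arfgef3, C5ar1, Chil3, Cpa3, Csf3r, Cybb, Dhrs3, Fcer1a, Hic1, Ier3, Ifng, Lag3, Lif, Mcpt1, Mcpt4, Nt5e, Rarg, Rnf128, S100a8, S1pr5, Saa3, Tgfbi, Tgm2, Wnt10a and Xcl1. The tolerised arrays correlated with each other at 0.983 to 0.990 and the primed arrays at 0.993 to 0.994 over all probe sets, so the tolerised arrays differed more among themselves. The labels do not tell whether replicates came from different mice. P-values then measure only the spread within groups of 3 arrays, which may be technical. That spread was pooled over all 5 CD4+ groups of the series, not only the groups compared. T cell identity genes were high on all 6 arrays. All 14 measured lay above the median of each array, with means of 9.91, 9.98 and 9.96 on tolerised arrays 1 to 3 and of 10.11, 10.05 and 10.16 on primed arrays 1 to 3. Each tolerised mean was a little below each primed mean. None of the 14 rose and 2 fell, the receptor-associated adaptor Trat1 and the surface glycoprotein Thy1, which differed by -0.27 (adjusted p = 0.0118), a call lost without tolerised array 1 or primed array 1. With each array centred on its own median, 2 of the 14 rose and 1 fell.

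By limma, 1514 of the 10322 genes tested were called at an adjusted p under 0.05, which is 14.7%. Of these, 644 were higher (6.24%) and 870 lower (8.43%) in tolerised cells. Large changes ran the other way: 258 genes were higher by at least 2-fold (2.5%) and 102 lower by at least 2-fold (0.988%). Together these large changes made up 3.49% of the genes tested. For 3151 genes (30.5%) all arrays of one group lay on one side of the other group, and 28% of genes had an unadjusted p under 0.05. The median difference of all genes tested was -0.0467. When each array was centred on its own median this became 0.0243 and 898 genes were called higher against 611 lower, so the balance of higher and lower calls hung on the scaling. List counts below are at the deposited scaling, and counts after centring are given for some lists only. Against the primed arrays with control IgG, a comparison that uses the same tolerised arrays, 1377 genes (13.3%) were called, 628 higher (6.08%) and 749 lower (7.26%). Leaving out tolerised array 1 brought the number of calls to 997, and with tolerised array 3 as the only tolerised array, its spread assumed to be like that of the other groups, 688 were called, 194 higher and 494 lower. The lists of genes described next were set beside these shares of all genes, and no test was run on a list as a whole.

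**Figure D1:**
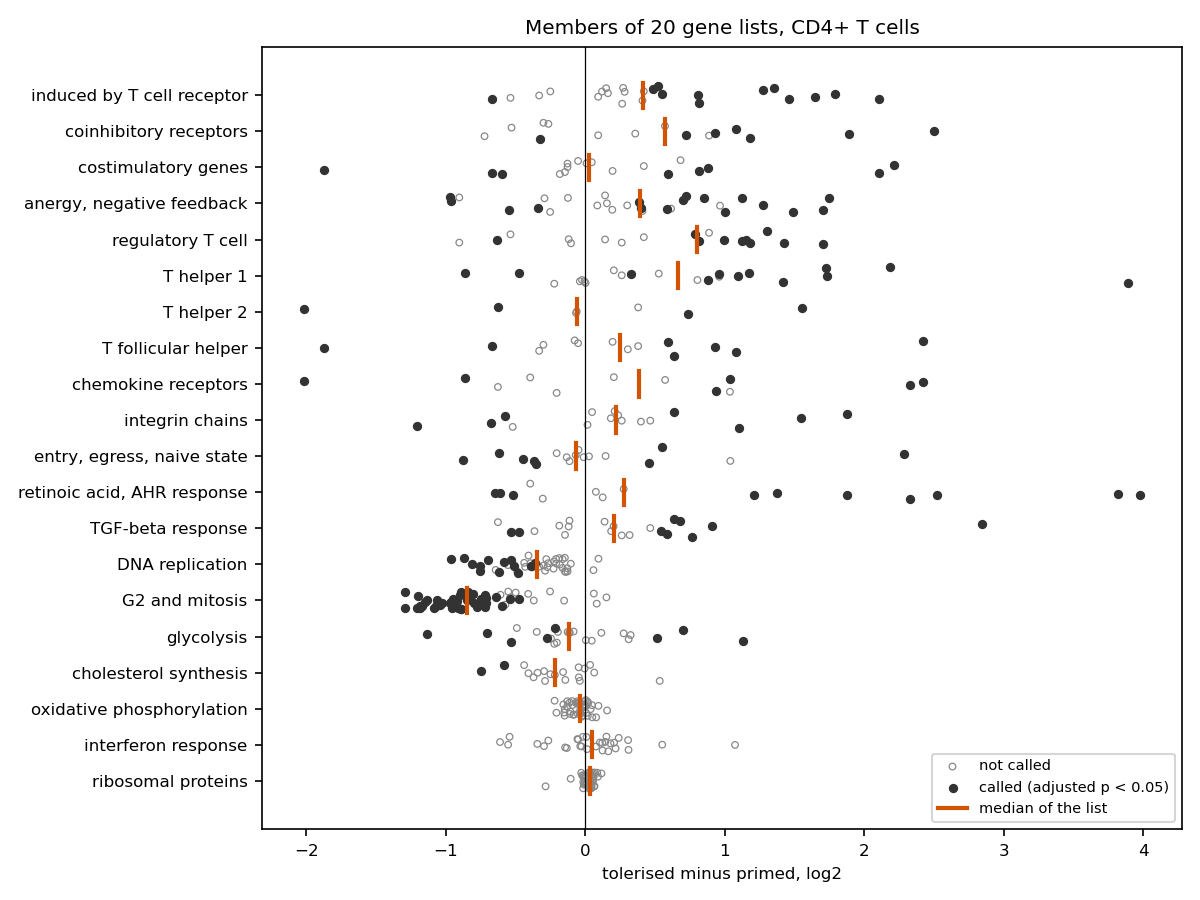
Difference between tolerised and primed CD4+ T cells (x axis, log2) for each tested member of 20 gene lists (y axis). Filled points are called genes, open points are not called and orange bars are list medians. G2 and mitosis genes lie almost wholly to the left, with a median of -0.843, ribosomal proteins cluster at 0, and the receptor-induced, anergy and retinoic acid lists hold members on both sides.

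Genes that T cell receptor signalling is known to induce stood higher in tolerised cells. Of 24 tested, 11 rose and 1 fell, with a median of 0.416. The nuclear receptor gene Nr4a3, a marker of recent receptor signals, read 8.25, 8.68 and 8.00 on the tolerised arrays, against 6.58, 6.37 and 6.60 on the primed arrays. Every tolerised array lay above every primed array, by a difference of 1.79 (SE 0.16, adjusted p = 1.83e-05). Its relative Nr4a1 read 6.80, 7.41 and 6.67 on the tolerised arrays, against 5.60, 4.85 and 5.49 on the primed arrays. The groups were again apart, with a difference of 1.65 (SE 0.23, adjusted p = 0.000462). The zinc finger factor Egr2, which is needed for anergy, read 10.66, 10.74 and 10.46 on the tolerised arrays, against 9.49, 9.02 and 9.52 on the primed arrays. The lowest tolerised value thus lay well above the highest primed one (difference 1.28, SE 0.13, adjusted p = 4.03e-05). Egr1, of the same family, differed by 1.35, and Nab2, the corepressor that binds Egr proteins, by 0.52. The factors Irf8, Irf4 and Nfatc1 were higher by 1.46, 0.48 and 0.81. Irf8 is also a dendritic cell marker and is counted in that list below. It averaged 10.15 on the CD11c+ tolerised arrays of the same study, against 6.23 on the CD4+ primed arrays. The part of dendritic cells in its rise was not tested. The call of Irf4 was lost without tolerised array 1, and that of Nab2 without tolerised array 2 or primed array 2. Cd69, an early activation marker that also holds cells in the node, rose by 0.55, while its call was lost without tolerised array 1 (adjusted p = 0.0537 in that fit). Egr3 and Nr4a2, of the same families, did not pass the test, with differences of 0.41 (adjusted p = 0.0582) and 0.27 (adjusted p = 0.197), though Egr3 was called higher without tolerised array 1 (adjusted p = 0.0341). Myc, a growth regulator that receptor signals also induce, differed by 0.15 (adjusted p = 0.379). The 1 member that fell was the costimulatory receptor Icos. With array 3 as the only tolerised array, 7 of the 24 rose and all 11 that had been called higher kept their sign.

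Immediate early genes, which respond to receptor signals and also to handling of cells, were mixed. Of 20 tested, 6 rose and 1 fell, with a median of 0.051. Fosl2, a subunit of the AP-1 factor, rose by 1.32, Ier3 by 1.79 and the phosphatase gene Dusp1 by 0.72, while the growth inhibitor Btg2 fell by 0.47, a call lost without tolerised array 1. Jun differed by -0.09 (adjusted p = 0.711) and Junb by 0.02 (adjusted p = 0.922). On tolerised array 3 alone, 2 genes of this list rose and 1 fell.

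Of 19 genes that act at the receptor itself, 1 rose and 5 fell, and the median was 0.02. Trat1, which stabilises the receptor complex at the surface, read 6.83, 6.87 and 7.24 on the tolerised arrays, against 9.01, 9.09 and 9.08 on the primed arrays. The groups were far apart and each was tight, with a difference of -2.08 (SE 0.12, adjusted p = 6.43e-07). Pag1, the adaptor that recruits the inhibitory kinase Csk, fell by 1.03, the signalling factor Themis by 0.55 and the kinase Prkcq by 0.44. The phosphatase gene Ptpn22, which dampens receptor signalling, was the 1 that rose, by 0.70 (adjusted p = 0.00152). With the arrays centred on their medians 5 of the 19 rose, and with tolerised array 3 alone none did and 4 fell.

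**Figure D2:**
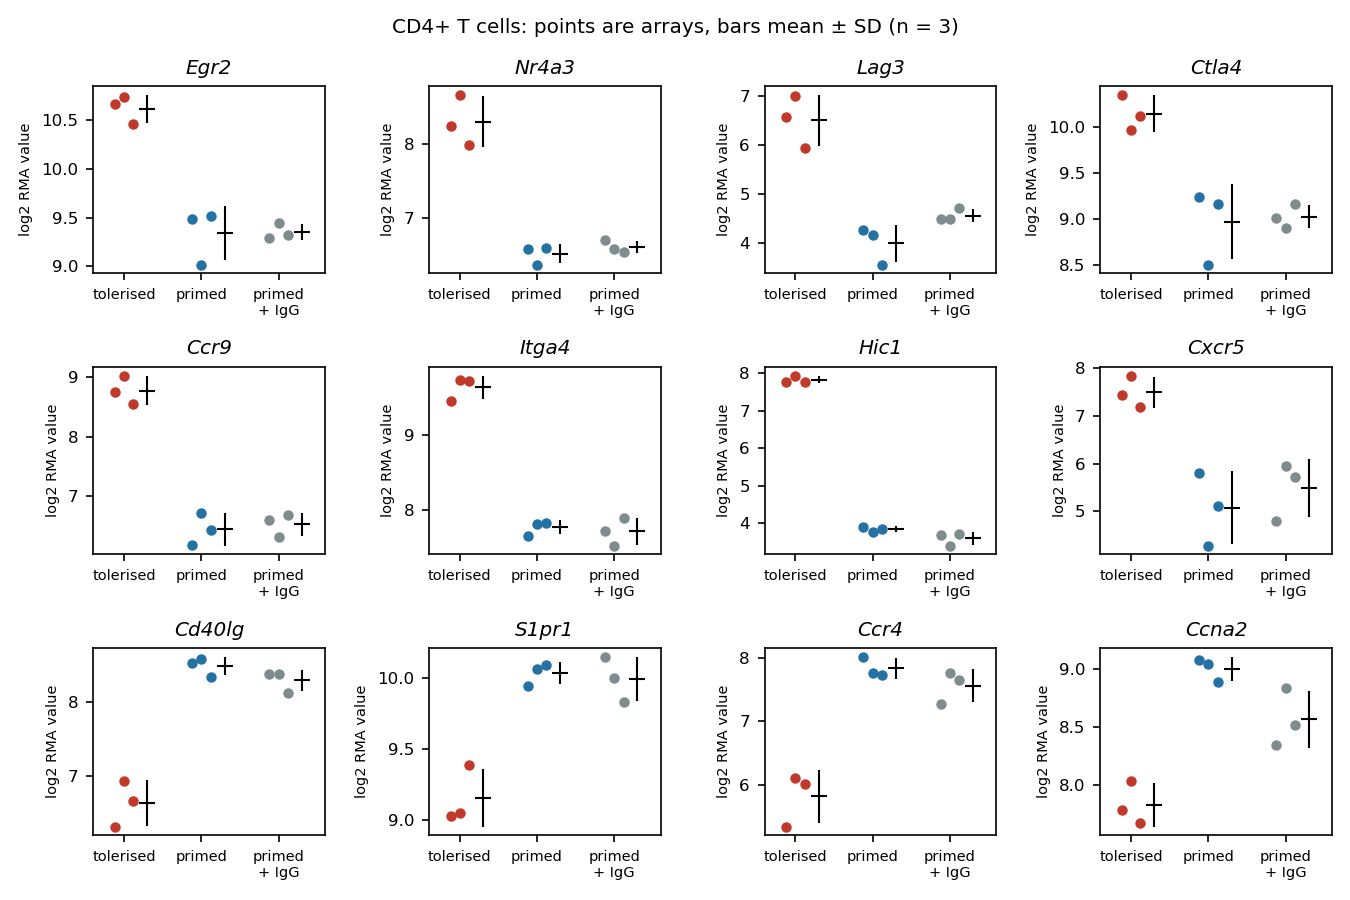
Log2 level (y axis) of 12 genes on each CD4+ array of tolerised mice, primed mice and primed mice given control IgG (x axis), with mean and SD of 3 arrays. In each panel the 3 tolerised points lie clear of the 3 points of both primed groups, above them for the first 8 genes and below them for Cd40lg, S1pr1, Ccr4 and Ccna2.

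Several receptors that restrain T cells were higher. Of 15 coinhibitory genes tested, 6 rose and 1 fell, with a median of 0.572. Lag3, which binds MHC class II, read 6.57, 6.98 and 5.94 on the tolerised arrays, against 4.26, 4.16 and 3.56 on the primed arrays. All primed values lay below the array medians, so the fold of 5.66 is not exact (difference 2.50, SE 0.25, adjusted p = 3.45e-05). Ctla4, which competes with CD28 for CD80 and CD86, read 10.36, 9.97 and 10.13 on the tolerised arrays, against 9.24, 8.50 and 9.17 on the primed arrays. It was high in both groups and the arrays did not overlap, with a difference of 1.18 (SE 0.19, adjusted p = 0.00138). Pdcd1, which encodes PD-1, read 5.75, 6.52 and 5.75 on the tolerised arrays, against 4.76, 5.23 and 5.25 on the primed arrays, a difference of 0.93 (adjusted p = 0.00706). Cd244a, an inhibitory receptor shared with natural killer cells, rose by 1.89, while its other probe set differed by 0.544. Cd160 rose by 0.72, a call lost without tolerised array 1, tolerised array 2 or primed array 1. Havcr2, which encodes TIM-3, read 5.34, 4.69 and 4.14 on the tolerised arrays, against 5.46, 5.18 and 5.70 on the primed arrays. It did not pass the test (difference -0.72, adjusted p = 0.0768), but was called lower without tolerised array 1 (adjusted p = 0.0101). Btla differed by -0.30 (adjusted p = 0.0592), and Vsir, which encodes VISTA, was the 1 member that fell, by 0.32, a call lost when any array but tolerised array 1 was left out. When array 3 was the only tolerised array, 3 coinhibitory genes rose and 3 fell.

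Costimulatory genes split into members that rose and members that fell. Of 18 tested, 5 rose and 3 fell, and the median was 0.029. Tnfrsf9, which encodes the receptor 4-1BB of stimulated T cells, read 9.29, 9.66 and 8.96 on the tolerised arrays, against 7.33, 6.65 and 7.60 on the primed arrays. The groups were apart by more than the spread within either (difference 2.11, SE 0.26, adjusted p = 0.00017). Tnfsf4, the ligand of OX40, rose by 2.22, its receptor gene Tnfrsf4 by 0.82 and Tnfsf8, the CD30 ligand, by 0.59, the last a call lost without tolerised array 1, tolerised array 2 or primed array 2. Cd40lg, the signal by which helper T cells activate B cells and dendritic cells, read 6.30, 6.93 and 6.65 on the tolerised arrays, against 8.54, 8.60 and 8.35 on the primed arrays. It stood lower on every tolerised array, with a difference of -1.87 (SE 0.17, adjusted p = 1.76e-05). Icos read 10.87, 10.86 and 10.77 on the tolerised arrays, against 11.60, 11.51 and 11.40 on the primed arrays. The groups did not overlap, and Icos fell by 0.67 (adjusted p = 0.00434). Tnfsf14, the ligand LIGHT, fell by 0.60. Cd28 itself read 10.20, 10.29 and 10.13 on the tolerised arrays, against 10.24, 10.06 and 10.18 on the primed arrays, and the arrays overlapped (difference 0.05, adjusted p = 0.777). Tolerised array 3 alone gave 2 costimulatory rises and 2 falls.

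Of 28 genes of anergy and negative feedback, 12 rose and 4 fell, with a median of 0.393. Rnf128, the ubiquitin ligase GRAIL that is known from anergic T cells, read 5.27, 6.22 and 5.31 on the tolerised arrays, against 3.87, 3.81 and 3.87 on the primed arrays. It was below the array medians on all primed arrays and above them on all tolerised arrays (difference 1.75, SE 0.19, adjusted p = 7.45e-05). Izumo1r (folate receptor 4), which marks anergic and regulatory cells, read 10.97, 11.02 and 11.03 on the tolerised arrays, against 10.00, 9.71 and 9.92 on the primed arrays, a difference of 1.13 (adjusted p = 0.000194). Nt5e, which encodes the adenosine-forming ectoenzyme CD73, read 5.88, 6.15 and 5.83 on the tolerised arrays, against 4.48, 4.39 and 3.88 on the primed arrays. The groups did not overlap, and the difference was 1.70 (SE 0.16, adjusted p = 2.3e-05). The ubiquitin ligase gene Cblb rose by 0.38 and the diacylglycerol kinase gene Dgkz, which damps receptor signals, by 0.40. Dgka, another diacylglycerol kinase known from anergy, fell by 0.34 (adjusted p = 0.0154). The calls of Cblb and Dgka were lost without tolerised array 1, at adjusted p = 0.0509 and 0.0679, and that of Dgka also without primed array 2. Rgs16, Dusp2 and the cytokine inhibitor Cish rose by 1.49, 0.999 and 0.72. Socs3, the antiproliferative gene Tob1 and the deacetylase gene Sirt1 fell by 0.96, 0.97 and 0.55. Set alone against the primed arrays, tolerised array 3 gave 4 rises and 2 falls among the 28.

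Around adenosine, the 12 genes tested held 5 rises and 3 falls. Entpd1, which encodes CD39, the enzyme upstream of CD73, rose by 0.99 (adjusted p = 0.0237), a call lost without tolerised array 1, tolerised array 2 or primed array 2, with the difference down to 0.63. P2rx7, the receptor of extracellular ATP, rose by 0.64. Adk and Ada, which clear adenosine by phosphorylation and deamination, rose by 1.08 and 0.60. Another probe set of Adk differed by 0.195, and the call of Ada was lost without tolerised array 1 or primed array 2. The phosphodiesterase genes Pde4b and Pde3b, which break down cyclic AMP, fell by 0.41 and 0.50. From tolerised array 3 alone, 1 gene of this list rose and 1 fell.

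Genes that respond to retinoic acid or to ligands of the aryl hydrocarbon receptor held a count of rises that did not hang on single arrays. Of 15 genes tested 7 rose and 3 fell, with a median of 0.276, and 7 rose in every fit that left out 1 array, in the fit on the 6 arrays alone and with tolerised array 3 as the only tolerised array. Hic1, a retinoic acid-responsive repressor of intestinal lymphocytes, read 7.76, 7.93 and 7.77 on the tolerised arrays, against 3.92, 3.77 and 3.85 on the primed arrays. It lay below the array medians on every primed array, and the arrays of each group were almost level (difference 3.98, SE 0.15, adjusted p = 7.77e-09). Ccr9, the receptor for the small intestinal chemokine CCL25, read 8.75, 9.03 and 8.55 on the tolerised arrays, against 6.18, 6.72 and 6.43 on the primed arrays. The groups stood apart, with a difference of 2.33 (SE 0.15, adjusted p = 9.43e-07). Dhrs3, a retinaldehyde reductase that retinoic acid induces, read 6.05, 6.24 and 5.89 on the tolerised arrays, against 3.87, 3.31 and 3.42 on the primed arrays. It too was below the array medians in primed cells only (difference 2.53, SE 0.19, adjusted p = 3.54e-06). Tgm2, a transglutaminase and classical retinoic acid target that macrophages also express, read 8.89, 7.67 and 7.19 on the tolerised arrays, against 3.83, 4.03 and 4.45 on the primed arrays, with the tolerised arrays spread over more than 1 unit. The aryl hydrocarbon receptor gene Ahr rose by 1.38 and the corepressor gene Nrip1 by 1.21. The receptors of retinoic acid fell together: Rara by 0.61 (adjusted p = 0.00253), Rarg by 0.65 and Rxra by 0.52, and the call of Rarg was lost without tolerised array 1 or primed array 3. Of the 3, 1 was called lower with tolerised array 3 alone.

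These genes are also transcribed in the CD11c+ fraction of the same study, where Tgm2 averaged 9.10, Dhrs3 6.62 and Itga4 9.63 on the tolerised arrays. That fraction carried markers of several cell types. On its tolerised arrays 1 to 3 the dendritic cell list averaged 9.07, 9.21 and 9.10. The macrophage list averaged 8.40, 8.92 and 9.01 there, and the neutrophil list 9.67, 8.53 and 8.48. Hic1 averaged 5.05 and Ccr9 7.13 there, both lower than on the CD4+ tolerised arrays, at means of 7.82 and 8.77, and both higher than on the CD4+ primed arrays, at means of 3.84 and 6.44. The part of other cells in these rises was not tested.

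Integrin chains changed in opposite directions. Of 16 tested, 4 rose and 3 fell. Itga4, the alpha 4 chain that pairs with beta 7 for the gut and with beta 1 for inflamed tissue, read 9.46, 9.74 and 9.73 on the tolerised arrays, against 7.66, 7.82 and 7.82 on the primed arrays. The groups lay far apart (difference 1.88, SE 0.11, adjusted p = 6.47e-07). Itgb7, its gut partner, read 9.99, 10.16 and 10.02 on the tolerised arrays, against 10.63, 10.61 and 10.64 on the primed arrays, lower on each tolerised array by a difference of -0.57 (adjusted p = 0.000327). Itgb1, the other partner, fell by 1.21 (adjusted p = 0.000184), and Itgb3 by 0.68. Itgae, the alpha chain that retains T cells in epithelium, read 6.71, 7.59 and 6.34 on the tolerised arrays, against 6.95, 5.82 and 7.10 on the primed arrays. The arrays overlapped (difference 0.26, adjusted p = 0.666), and the sign turned when tolerised array 2 or primed array 2 was left out. Among integrin genes 1 rose and 2 fell with tolerised array 3 alone, and with the arrays centred on their medians 7 rose.

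Among 12 chemokine receptors tested, 4 rose and 2 fell. Cxcr5, the receptor that leads T cells to B cell follicles, read 7.44, 7.85 and 7.18 on the tolerised arrays, against 5.81, 4.29 and 5.12 on the primed arrays. The primed arrays were widely spread and still lay below all tolerised arrays (difference 2.42, SE 0.43, adjusted p = 0.00237). Ccr4, the receptor for CCL17 and CCL22 that guides T cells to dendritic cells and skin, read 5.34, 6.11 and 6.01 on the tolerised arrays, against 8.02, 7.75 and 7.72 on the primed arrays. It was lower on each tolerised array, by a difference of -2.02 (SE 0.20, adjusted p = 3.45e-05). Ccr6, a receptor of helper cells and of gut lymphoid tissue, rose by 1.04 and Ccr2 fell by 0.86. The calls of both were lost when single arrays were left out, tolerised array 1 or primed array 2 for Ccr6 and tolerised array 3, primed array 1 or primed array 3 for Ccr2, whose smallest difference was then -0.57. Cxcr3, the receptor of T helper 1 cells, differed by 0.21 (adjusted p = 0.483) and Cxcr6 by -0.63 (adjusted p = 0.056), which was called lower without tolerised array 3 (adjusted p = 0.0314). Among these receptors 1 rose and 2 fell with tolerised array 3 alone.

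Genes of node exit changed in both directions. S1pr1, the receptor by which lymphocytes leave the node, read 9.03, 9.05 and 9.39 on the tolerised arrays, against 9.94, 10.06 and 10.09 on the primed arrays. The groups did not overlap, with a difference of -0.88 (SE 0.11, adjusted p = 0.00017). S1pr4 fell by 0.62, the selectin ligand gene Selplg by 0.45 and Klf2, the factor that drives S1pr1, by 0.37. Klf2 read 8.11, 8.13 and 8.06 on the tolerised arrays, against 8.33, 8.67 and 8.42 on the primed arrays, and its call was lost without tolerised array 1 or primed array 2 (adjusted p up to 0.0757). S1pr5, a receptor of natural killer and effector cells, rose by 2.29. Bach2, a repressor that keeps T cells from differentiating, rose by 0.46, while another of its probe sets differed by -0.026. Of the 17 genes of node entry, exit and the naive state that were tested, 3 rose and 5 fell, and with tolerised array 3 alone 1 rose and 3 fell.

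Regulatory T cell genes were partly higher, while for Foxp3, their defining factor, the outcome hung on 1 primed array. Mice of this genotype are known to hold few or no thymus-derived regulatory T cells before they meet antigen. Foxp3 read 8.69, 9.10 and 8.96 on the tolerised arrays, against 9.71, 7.83 and 9.51 on the primed arrays. The 3 tolerised arrays lay between the lowest and the highest primed array (difference -0.10, SE 0.37, adjusted p = 0.891), and without primed array 2 Foxp3 was called lower, at -0.69 (adjusted p = 0.0387). Of 18 regulatory genes tested, 9 rose and 1 fell, with a median of 0.8. The Ikaros family genes Ikzf2 (Helios) and Ikzf4 (Eos) rose by 1.43 and 1.31, and Il2rb, a chain of the receptors of interleukins 2 and 15, by 1.15. Il2ra, the alpha chain CD25, read 8.37, 8.64 and 8.79 on the tolerised arrays, against 9.33, 8.69 and 9.38 on the primed arrays. It did not pass the test (difference -0.54, adjusted p = 0.055), but was called lower without primed array 2 (adjusted p = 0.00574) or tolerised array 3 (adjusted p = 0.0428). Ebi3, a subunit of interleukins 27 and 35, was the 1 that fell, by 0.63, a call lost without tolerised array 1, tolerised array 2, primed array 1 or primed array 3. Of the other members that rose, Ctla4, Izumo1r, Nt5e, Entpd1 and Tnfrsf4 also belong to other lists above, and Cd83, whose call was lost when any array but tolerised array 3 was left out, is also expressed by dendritic cells. Of the 18, 5 rose and 1 fell with array 3 as the only tolerised array.

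In the list of T helper 1 factors and effector molecules, 10 of 22 rose and 2 fell, with a median of 0.667. Eomes, a T-box factor of cytotoxic and memory cells, read 8.54, 8.77 and 8.02 on the tolerised arrays, against 6.35, 6.04 and 6.41 on the primed arrays. The groups were apart by more than 1 unit (difference 2.18, SE 0.24, adjusted p = 6.32e-05). Tbx21, the T-box factor that defines T helper 1 cells, read 7.15, 6.90 and 6.72 on the tolerised arrays, against 6.10, 6.10 and 5.70 on the primed arrays, a difference of 0.96 (adjusted p = 0.00125). Ifng, their cytokine, read 6.03, 5.98 and 5.85 on the tolerised arrays, against 4.94, 3.86 and 3.86 on the primed arrays. It differed by 1.74 (SE 0.25, adjusted p = 0.000638), with 2 of 3 primed arrays below the array medians. The granule genes Gzma and Nkg7 rose by 3.89 and 1.42 and the chemokine genes Ccl5 and Xcl1 by 1.73 and 1.10. Il18r1, the interleukin 18 receptor chain of T helper 1 cells, fell by 0.86, and Runx3, a factor that acts with Tbx21, by 0.47. Gzmb and Prf1, further cytotoxic genes, differed by 0.96 (adjusted p = 0.119) and -0.22 (adjusted p = 0.0853), and Gzmb was called higher without tolerised array 3 (adjusted p = 0.0234). Natural killer cells express many of these genes. The list of natural killer markers averaged 6.97, 6.69 and 6.16 on tolerised arrays 1 to 3, against 5.51, 5.40 and 5.40 on primed arrays 1 to 3. That list also holds Eomes, Gzma, Gzmb, Prf1 and Nkg7, named above, so its means are not separate from their values. For 9 of the 10 genes of the T helper 1 list that rose, the CD11c+ tolerised arrays averaged at least 2-fold more than the CD4+ primed arrays. The CD4+ primed mean enters both the rises and this count. Of the 22, 6 rose and 2 fell with tolerised array 3 alone. The part of natural killer or other cells in these rises was not tested.

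T helper 2, T helper 17 and follicular helper genes were split. Of 7 T helper 2 genes tested, 2 rose and 2 fell. Gata3, the factor that defines T helper 2 cells, read 6.36, 6.62 and 6.60 on the tolerised arrays, against 7.07, 7.10 and 7.28 on the primed arrays, a difference of -0.62 (adjusted p = 0.00543). Il17rb, a receptor chain for interleukin 25, rose by 1.55, and Ccr4 fell as above. Of 10 T helper 17 genes tested, 3 rose (Ahr, Ccr6 and Stat3) and 3 fell (Il6ra, Il1r1 and Casp1). The call of Stat3 was lost when any array but tolerised array 3 was left out, and that of Casp1 without primed array 3 (adjusted p = 0.0572) and against the IgG group (adjusted p = 0.0675). Il6ra, the interleukin 6 receptor, read 7.47, 7.59 and 7.80 on the tolerised arrays, against 8.58, 8.75 and 8.79 on the primed arrays, and the groups were clearly apart (difference -1.08, SE 0.11, adjusted p = 3.62e-05). Of 14 follicular helper genes 5 rose, among them Cxcr5, Pdcd1 and P2rx7, and 2 fell, Cd40lg and Icos, which carry the help to B cells. Bcl6, the factor that defines follicular helper cells, read 8.31, 8.66 and 8.29 on the tolerised arrays, against 8.04, 8.15 and 8.15 on the primed arrays. Every tolerised array lay above the primed arrays, but the difference of 0.31 did not pass the test (adjusted p = 0.162). When tolerised array 3 stood alone, no follicular helper gene was called higher and 1 was called lower.

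Of 22 cytokine genes measured, 12 were tested, of which 3 rose and 3 fell. Il2, the growth factor of T cells, read 5.31, 4.80 and 4.63 on the tolerised arrays, against 5.72, 5.52 and 4.87 on the primed arrays. The arrays overlapped and the difference of -0.45 did not pass the test (adjusted p = 0.186), though without primed array 3 it was -0.71 and was called (adjusted p = 0.032). Penk, which encodes enkephalin precursors, rose by 2.36 and Lif by 1.19, while Ltb, which encodes lymphotoxin beta, fell by 0.69. Il4, Il10, Il17a and Il21 read at most 4.25 on any of the 6 arrays and were not tested. Among 25 cytokine receptors 4 rose and 3 fell, the falls being Il6ra, Il1r1 and Il18r1. With only tolerised array 3, 1 cytokine gene and 2 cytokine receptor genes rose.

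For transforming growth factor beta, which is known to act with retinoic acid on T cells of the gut, 7 of 21 genes rose and 2 fell. The feedback inhibitor genes Skil and Smurf2 rose by 0.77 and 0.68 and the receptor gene Tgfbr1 by 0.55, the last a call lost without tolerised array 1, tolerised array 2, primed array 2 or primed array 3, with the difference down to 0.36. Smad3, which carries the signal, read 8.80, 8.82 and 8.83 on the tolerised arrays, against 9.37, 9.38 and 9.30 on the primed arrays. It was lower in each tolerised array, by a difference of -0.53 (SE 0.06, adjusted p = 0.00015), and the factor gene Runx3 fell by 0.47. Tgfbi, a target that macrophages express strongly, read 7.62, 6.28 and 4.17 on the tolerised arrays, against 2.67, 3.27 and 3.57 on the primed arrays, with tolerised array 3 below the array medians. With tolerised array 3 alone, 2 genes of the list rose and 3 fell.

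The broadest change in the pathway lists was in genes of cell division. Of 56 genes of G2 and mitosis tested, 44 fell and none rose, with a median of -0.843, against 8.43% of all genes tested that were called lower. Ccna2, the cyclin of S phase and mitotic entry, read 7.78, 8.04 and 7.67 on the tolerised arrays, against 9.08, 9.04 and 8.88 on the primed arrays. The groups lay apart by a difference of -1.17 (SE 0.14, adjusted p = 0.000139). Cdk1, the mitotic kinase, read 6.18, 6.44 and 6.34 on the tolerised arrays, against 7.56, 7.35 and 7.24 on the primed arrays. It too was lower on each tolerised array (difference -1.06, SE 0.14, adjusted p = 0.00039). Cdc20, which activates the anaphase-promoting complex, fell by 0.96, and the kinase gene Plk1 by 0.89. Mki67, the proliferation marker, read 9.97, 10.51 and 10.40 on the tolerised arrays, against 11.04, 11.12 and 11.05 on the primed arrays, a difference of -0.78 (adjusted p = 0.00399). In a bulk sample, fewer dividing cells and less of these transcripts in each dividing cell cannot be told apart. Of 44 genes of DNA replication and licensing, 13 fell and none rose, with a median of -0.345. Rrm2, which supplies deoxynucleotides, Cdc6, which licenses origins, and Tk1, the thymidine kinase, fell by 0.96, 0.87 and 0.81. At an unadjusted p under 0.05, 50 mitotic and 24 replication genes were lower and none was higher. Of 32 cyclins, G1 kinases and inhibitors, 8 fell and 2 rose, with E2f2, Cdkn3 and Cdkn2c lower by 0.69, 1.11 and 0.82 and the stress gene Gadd45g higher by 1.07. With tolerised array 3 as the only tolerised array, 32 of the 56 mitotic genes fell and all 44 that had been called kept their sign. Set against the primed arrays with control IgG, 20 of the 56 mitotic genes fell and none rose, with a median of -0.568, and 6 of the 44 replication genes fell.

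Many genes of G2 and mitosis share a promoter element, the cell cycle genes homology region with the letters TTTGAA, often near a CCAAT box, through which repressing and activating protein complexes are known to time them. Promoter sequences of 300 bases, from 250 before to 50 after the start, were taken from RefSeq on GRCm38.p6 for the 47 genes of the mitosis list that matched, with 51 promoters. Searched on both strands, TTTGAA stood in 38 of the 51 (74.5%) and CCAAT in 38 of the 51 (74.5%), against 17.9% and 37.4% of all 32851 promoters of this length. In promoters of the replication list the shares were 13.3% and 60.0%, over 45 promoters of 37 genes. Of 10721 promoters of genes tested, 12.3% held TTTGAA and 37.5% held CCAAT. Of 42 promoters of mitotic genes that fell, 31 (73.8%) held TTTGAA. This is close to the 74.5% of the whole mitosis list, so the match did not set apart the members that fell. A match in the letters is a description and not a shown binding site, and the motifs can adjoin or share a base. The promoters of 4 genes with a match and 1 promoter each, those with the smallest p, are shown as they are read towards the gene, with each TTTGAA or its reverse complement in capitals. Cdc20 lies at chr4:118437294-118437593 on the minus strand, Cdk1 at chr10:69352863-69353162 on the minus strand, Plk1 at chr7:122159185-122159484 on the plus strand and Aspm, a spindle pole protein gene, at chr1:139454523-139454822 on the plus strand.
Cdc20: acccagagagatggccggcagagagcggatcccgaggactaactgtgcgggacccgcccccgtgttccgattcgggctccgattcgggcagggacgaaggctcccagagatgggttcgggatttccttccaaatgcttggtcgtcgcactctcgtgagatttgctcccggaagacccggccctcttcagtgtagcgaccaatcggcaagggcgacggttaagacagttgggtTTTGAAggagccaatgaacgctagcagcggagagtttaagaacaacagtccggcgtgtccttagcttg
Cdk1: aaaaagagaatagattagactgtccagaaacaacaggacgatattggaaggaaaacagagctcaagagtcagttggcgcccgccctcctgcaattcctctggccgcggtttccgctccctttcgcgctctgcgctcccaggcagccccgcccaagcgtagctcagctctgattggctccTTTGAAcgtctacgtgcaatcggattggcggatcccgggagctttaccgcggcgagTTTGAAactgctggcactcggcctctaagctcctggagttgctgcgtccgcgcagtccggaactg
Plk1: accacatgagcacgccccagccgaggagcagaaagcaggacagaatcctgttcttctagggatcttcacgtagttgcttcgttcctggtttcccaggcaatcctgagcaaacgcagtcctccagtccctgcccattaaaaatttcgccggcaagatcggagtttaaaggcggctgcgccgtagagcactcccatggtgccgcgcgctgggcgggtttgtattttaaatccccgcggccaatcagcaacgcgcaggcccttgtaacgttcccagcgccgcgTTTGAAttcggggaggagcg
Aspm: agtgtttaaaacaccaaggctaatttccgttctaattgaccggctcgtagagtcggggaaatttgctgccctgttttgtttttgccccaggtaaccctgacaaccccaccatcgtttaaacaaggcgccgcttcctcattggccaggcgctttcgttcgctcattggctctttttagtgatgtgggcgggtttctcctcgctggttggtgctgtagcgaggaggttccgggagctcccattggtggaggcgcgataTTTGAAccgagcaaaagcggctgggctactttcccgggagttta

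In Cdc20 the match began 18 bases before the start, in Cdk1 there were 2 matches, and in Plk1 and Aspm the match lay just after the start. Aspm read 5.15, 5.54 and 5.53 on the tolerised arrays, against 6.51, 6.78 and 6.48 on the primed arrays, a difference of -1.18 (adjusted p = 0.000773).

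Of 24 genes of glucose uptake and glycolysis, 3 rose and 5 fell, but 5 rose and 2 fell with the arrays centred on their medians, and none rose and 3 fell with tolerised array 3 alone. Pdk1, the kinase that keeps pyruvate from the mitochondria, read 6.40, 6.21 and 6.61 on the tolerised arrays, against 7.45, 7.64 and 7.54 on the primed arrays, and was lower by 1.14 in its difference (SE 0.10, adjusted p = 9.86e-06). Pfkfb3, which stimulates glycolysis, and the muscle-type enolase gene Eno3 rose by 0.70 and 1.13, and Tigar, which restrains glycolysis, fell by 0.53. Of 19 genes of cholesterol synthesis 2 fell, Msmo1 and Sqle, and none did with the arrays centred on their medians. Both calls were also lost when tolerised array 1, tolerised array 3, primed array 1 or primed array 2 was left out. Another probe set of Msmo1 differed by -0.022. Phgdh, the entry enzyme of serine synthesis, fell by 0.57, as the 1 call among 17 genes of amino acid supply. Its other probe set differed by 0.095. By limma, none of 44 oxidative phosphorylation genes, 40 cytosolic ribosomal proteins, 30 interferon response genes and 22 genes of protein folding in the endoplasmic reticulum was called. At an unadjusted p under 0.05, these 4 lists held 3, 0, 6 and 7 genes. In the BCL2 and death receptor list of 23, Bcl2, which protects T cells from death, rose by 0.60 and the death ligand gene Fasl by 0.88, while the survival kinase gene Pim2 fell by 0.52. The call of Fasl was lost without tolerised array 1, tolerised array 2, primed array 1 or primed array 2. Of 16 heat shock genes Hspa4l rose, by 0.69, a call lost without primed array 1 or primed array 2 (adjusted p up to 0.0834), with the difference down to 0.38.

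**Figure D3:**
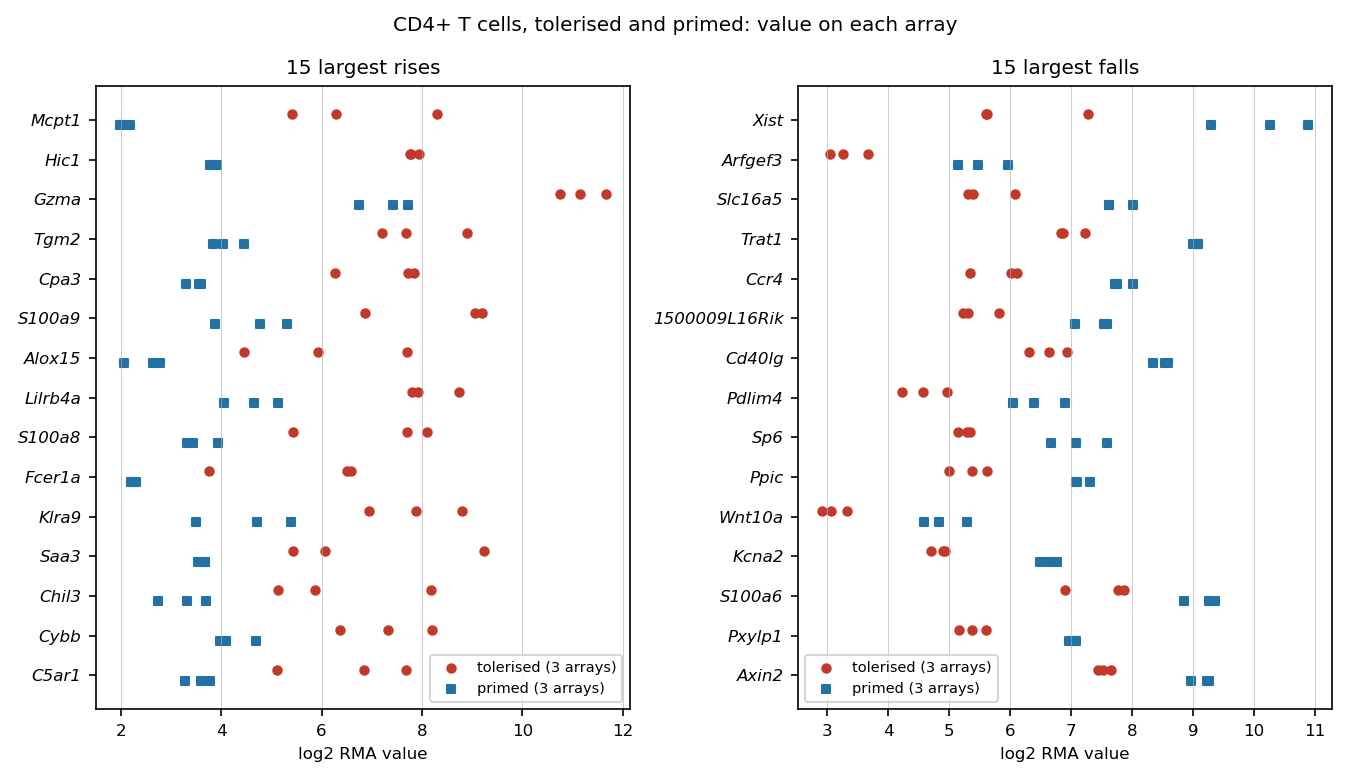
Log2 level (x axis) on each array for the 15 genes with the largest rises (left) and the 15 with the largest falls (right), with tolerised arrays as red circles and primed arrays as blue squares. The red and blue points of a gene never overlap, and the red points are spread widely for most rises but not for Hic1, and are close together for most falls.

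The 15 largest falls ran from -3.99 to -1.61, and all 15 were also called lower against the primed arrays with control IgG. Xist, Trat1, Ccr4 and Cd40lg, described above or below, were among them. Axin2, a target and feedback inhibitor of Wnt signalling, read 7.45, 7.53 and 7.66 on the tolerised arrays, against 9.23, 8.98 and 9.26 on the primed arrays. The groups were tight and apart (difference -1.61, SE 0.09, adjusted p = 5.72e-07). Wnt10a, a Wnt ligand, was below the array medians on all tolerised arrays, at 3.06, 2.92 and 3.32, against 5.30, 4.59 and 4.83 on the primed arrays. Slc16a5, of the monocarboxylate transporter family, read 5.39, 5.31 and 6.08 on the tolerised arrays, against 7.62, 8.01 and 7.62 on the primed arrays (difference -2.16, SE 0.18, adjusted p = 6.86e-06). The potassium channel gene Kcna2 fell by 1.79, the cyclophilin gene Ppic by 1.84 and the calcium-binding protein gene S100a6 by 1.65. Arfgef3, Sp6, Pdlim4, Pxylp1 and 1500009L16Rik fell by 2.20, 1.85, 1.86, 1.64 and 1.94. For 1 of the 15, S100a6, the level on CD11c+ tolerised arrays was at least 2-fold above the CD4+ primed level.

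The 15 largest rises ran from 2.999 to 4.61, and most are known from cells other than T cells. Mcpt1, a mast cell protease of the gut mucosa, read 6.28, 8.29 and 5.41 on the tolerised arrays, against 1.99, 1.99 and 2.17 on the primed arrays. Cpa3, the mast cell carboxypeptidase, read 7.83, 7.71 and 6.26 on the tolerised arrays, against 3.31, 3.55 and 3.59 on the primed arrays. Fcer1a, the chain of the IgE receptor that mast cells and basophils carry, read 6.51, 6.58 and 3.76 on the tolerised arrays, against 2.30, 2.21 and 2.25 on the primed arrays. All 3 lay below the array medians in primed cells, and Fcer1a did so on tolerised array 3 as well. S100a9, a neutrophil and monocyte gene, read 9.05, 9.20 and 6.87 on the tolerised arrays, against 4.77, 3.88 and 5.30 on the primed arrays, and S100a8 rose with it. Others of the 15 were Alox15, Lilrb4a, Saa3, Chil3, Cybb and C5ar1, all known from macrophages or other myeloid cells, the natural killer receptor gene Klra9, Gzma, Tgm2 and Hic1. For 11 of the 15 the primed mean lay below the array medians, so the folds are not exact. Saa3 differed by 3.28, and by 2.12 without tolerised array 1. In 14 of the 15 the lowest tolerised value was on array 3. For 12 of the 15 the CD11c+ tolerised arrays averaged at least 2-fold more than the CD4+ primed arrays. The primed mean that enters each rise also enters this count.

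**Figure D4:**
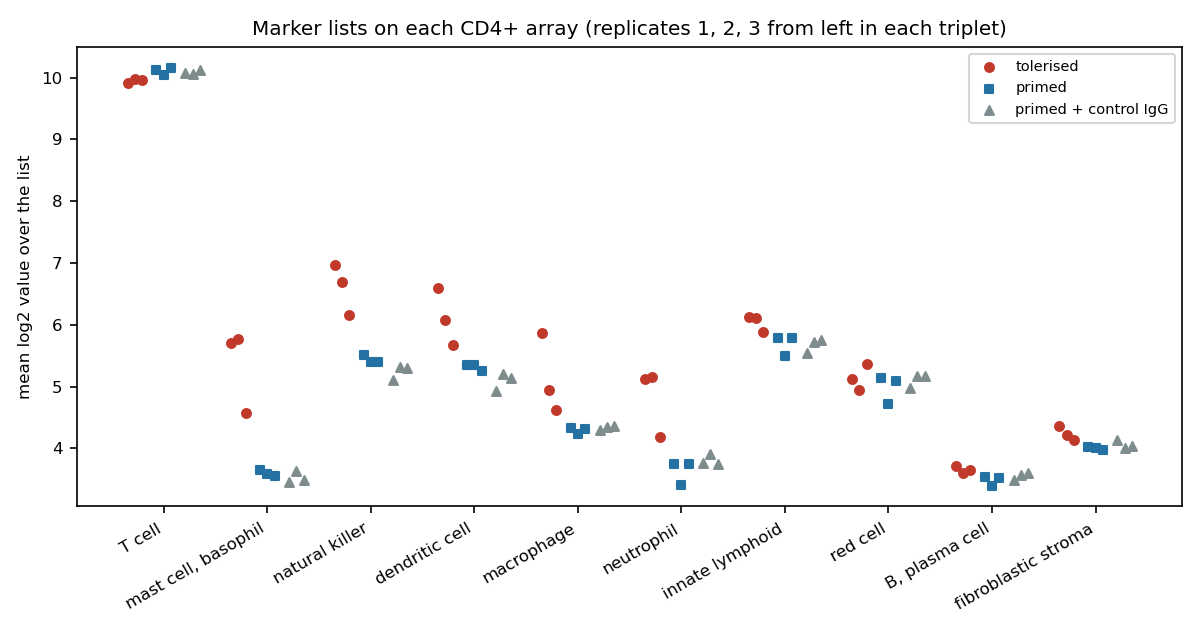
Mean log2 level (y axis) of 10 marker lists (x axis) on each CD4+ array of tolerised mice, primed mice and primed mice given control IgG. T cell genes are near 10 on all arrays and slightly lower on the tolerised ones, while mast cell, natural killer, dendritic, macrophage and neutrophil lists are higher on all 3 tolerised arrays, least on tolerised array 3.

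Several lists of markers of other cells held mostly higher members on the tolerised arrays. Of 14 mast cell and basophil genes tested 11 rose, and the mean over the 17 measured was 5.71, 5.77 and 4.57 on tolerised arrays 1 to 3, against 3.64, 3.58 and 3.55 on primed arrays 1 to 3. Of 15 natural killer genes 10 rose, of 18 dendritic cell genes 10, of 23 monocyte and macrophage genes 11 with 1 lower, and of 15 neutrophil genes 6. The macrophage list averaged 5.87, 4.94 and 4.62 on the tolerised arrays, against 4.33, 4.23 and 4.32 on the primed arrays, and its lysozyme gene Lyz2 read 10.72, 9.78 and 8.83 on the tolerised arrays, against 7.02, 6.31 and 7.02 on the primed arrays. The dendritic cell list averaged 6.59, 6.08 and 5.68 on the tolerised arrays, against 5.35, 5.35 and 5.26 on the primed arrays, and Cd74, the chaperone of MHC class II, rose by 1.83. The neutrophil list averaged 5.12, 5.16 and 4.19 on the tolerised arrays, against 3.75, 3.41 and 3.74 on the primed arrays. In each of these lists tolerised array 3 was the lowest of the tolerised arrays and still above every primed array. Some markers that define these cells were below the array medians on all 6 arrays, among them the dendritic cell genes Flt3 and Xcr1, the macrophage gene Vsig4 and the neutrophil genes Elane and Csf3r. Of 4 B cell and plasma cell genes tested, 1 rose, and 7 of 12 measured, including Pax5 and Ighm, were below the medians on all 6 arrays, as were all 12 genes of exocrine pancreas and salivary gland and 13 of 14 of endothelium. With tolerised array 3 as the only tolerised array, 6 of 14 mast cell and basophil genes, 6 of 15 natural killer genes, 6 of 23 macrophage genes, 4 of 15 neutrophil genes and 2 of 18 dendritic cell genes rose. Smaller changes were found for innate lymphoid cells (5 of 13 higher, 2 lower), eosinophils (2 of 6 higher), red cell precursors (1 of 8 higher), platelets (1 of 3 higher, 1 lower), adipocytes (1 of 5 higher) and fibroblastic stroma (1 of 4 lower), and none of the 2 gut epithelium genes, 1 endothelium gene and 1 pancreas or salivary gland gene tested was called by limma, with 1 of them, that of endothelium, at an unadjusted p under 0.05. The part of these cells in the other differences was not tested.

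**Figure D5:**
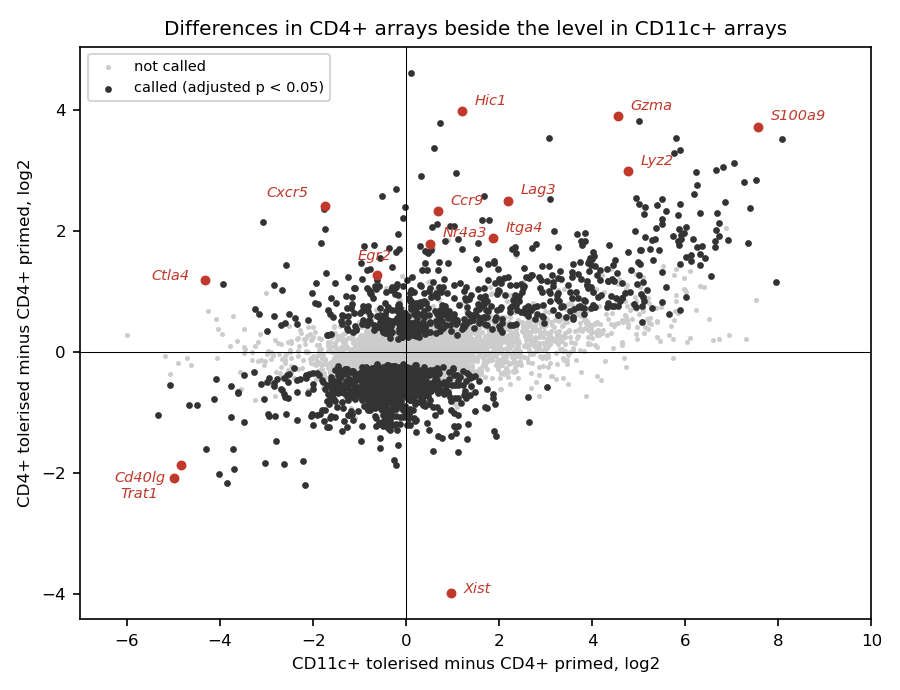
Difference between tolerised and primed CD4+ T cells (y axis, log2) of each tested gene beside its level on the CD11c+ tolerised arrays relative to the CD4+ primed arrays (x axis, log2), with called genes dark and named genes red. Large rises are mostly at the right, where CD11c+ cells express the gene more strongly, while Ctla4, Cxcr5 and Egr2 rose at the left and most falls also lie left of 0. The CD4+ primed mean is subtracted on both axes, so the axes are not independent.

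The level of each gene on the CD11c+ tolerised arrays was set beside these differences. Of the 258 genes that rose by at least 2-fold, 180 (69.8%) had a CD11c+ tolerised mean at least 2-fold above the CD4+ primed mean, against 12.9% of all genes tested. Of the 102 that fell by at least 2-fold, 12 (11.8%) did. The CD4+ primed mean enters both differences, so a low primed value raises both. Shares of genes chosen by their CD4+ difference, here and below, are thus not independent of that choice. Among the 258, tolerised array 3 was the lowest tolerised array for 227 (88.0%) and tolerised array 1 the highest for 163 (63.2%). For 45 of the 258 (17.4%) the CD11c+ level was at or below the CD4+ primed level. These 45 held Egr1, Egr2, Ctla4, Izumo1r, Nt5e, Ikzf2, Ikzf4, Cxcr5, Tnfsf4, Penk, Lif, Il17rb, Adk and Nrip1, all named above, and also the mast cell protease gene Mcpt4, whose call was lost without tolerised array 1, tolerised array 2, primed array 1 or primed array 3. At or below the CD4+ primed level in CD11c+ cells were 56.6% of all genes tested and 27.2% of the 644 called higher. In the list of receptor-induced genes this held for 7 of the 11 that rose. It held for 7 of 12 in the anergy list, 6 of 9 in the regulatory list and 5 of 5 in the follicular list. The same held for 4 of 7 in the transforming growth factor beta list, 3 of 5 in the costimulatory and in the adenosine list and 3 of 6 in the coinhibitory list. It held for 1 of 4 chemokine receptors, 1 of 6 immediate early genes, 1 of 7 retinoic acid genes, 1 of 10 T helper 1 genes and 0 of 4 integrin genes. Hic1, Ccr9, Lag3, Nr4a3 and Eomes were not among the 45. In CD11c+ cells themselves, tolerised against primed, 290 of 10203 genes tested (2.84%) were called, 142 higher (1.39%) and 148 lower (1.45%), and 76 genes were called in both cell types, which is 5.0% of the CD4+ calls and 26.2% of the CD11c+ calls. Of the 76, 47 changed in the same direction. Sex-linked transcripts also differed between the CD11c+ groups, as given below.

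Sex-linked transcripts differed as well, while the labels leave the mice's sex unstated. Xist, the RNA that silences one X chromosome in females, read 7.28, 5.61 and 5.62 on the tolerised arrays, against 10.27, 9.31 and 10.89 on the primed arrays. It was the largest fall of all genes tested (difference -3.99, SE 0.40, adjusted p = 3.95e-05). The Y-linked gene Eif2s3y read 8.88, 8.84 and 8.96 on the tolerised arrays, against 8.50, 8.82 and 8.54 on the primed arrays, high in both groups (difference 0.27, adjusted p = 0.13), and averaged 2.51 on the primed arrays with control IgG. Transcripts typical of both sexes were thus present on the primed arrays and, with less Xist, on the tolerised arrays. Of 7 Y-linked genes tested 3 rose, Ssty2, Orly and Ssty1, by 2.15, 1.11 and 1.02, with the call of Orly lost without tolerised array 1 or primed array 3. Of 304 X-linked genes tested 15 rose and 33 fell, beside 6.24% higher and 8.43% lower among all genes tested. Between the CD11c+ groups Xist went the other way, averaging 11.11 on tolerised and 4.50 on primed arrays. By limma the difference was 6.61 (adjusted p = 0.000796). Of 4 sex-linked transcripts measured, 1 lay above the median on each CD11c+ tolerised array, against 3 or 4 on the CD11c+ primed arrays. In that comparison sex-linked transcripts and treatment changed together. The part of sex in the other differences, in either cell type, was not tested.

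Against the primed arrays with control IgG, which lack the Y-linked transcripts and come from the same node as the primed arrays, the values of some genes described above stayed close and those of others moved. The differences from primed and from primed with IgG were 1.28 and 1.26 for Egr2, 1.79 and 1.70 for Nr4a3, 2.50 and 1.94 for Lag3, 1.18 and 1.13 for Ctla4, 1.70 and 1.91 for Nt5e, 2.33 and 2.25 for Ccr9, 3.98 and 4.22 for Hic1, -1.87 and -1.68 for Cd40lg and -0.88 and -0.84 for S1pr1. All 9 were called in both. Larger shifts between the references were found for Ccl5, at 1.73 and 3.40, for Klra9, at 3.34 and 4.93, and for Tk1, at -0.81 and -0.26 (adjusted p = 0.349 against the IgG group). The comparisons share the tolerised arrays, so the second is not independent of the first. Some genes were called in the first alone, among them Klf2 at -0.30 (adjusted p = 0.0532), Gata3 at -0.37 (adjusted p = 0.0773), Mki67 at -0.47 (adjusted p = 0.0548) and Bach2 at 0.24 (adjusted p = 0.0731) against the IgG group, while Bcl6 was called in the second, at 0.47 (adjusted p = 0.0372). Whether the differences themselves differ between the references was not tested.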

How the data were processed

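CD4+ and CD11c+ cells of 5 groups, 3 samples each, were measured on 30 mouse expression arrays. From 50 ng of total RNA, labelled cDNA was made per the labels. The values are log2 intensities per probe set that the authors deposited, made with RMA per the submitters' processing notes, with the version not given in the sources used here. RMA normalises arrays to a common distribution, which sets differences relative to all probe sets, and the low end holds background. Precision is set by how few arrays there are per group.

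Of 45118 probe sets, 28898 carried 1 gene symbol, 551 several and 15669 none, by the platform annotation. A gene was represented by its brightest probe set, judged by the mean of all 30 arrays. A gene was tested if 3 or more of the 15 CD4+ arrays showed it above their own median. The unimmunised arrays could thus bring in genes that were low in both compared groups. On these arrays the neutrophil list averaged 9.22, 8.99 and 9.37. All 15 neutrophil genes measured lay above the median of each unimmunised array and so were tested. Of them, 5 were below the medians on all 6 tolerised and primed arrays. The test was limma version 3.58.1, run under R version 4.3.3, with its lmFit and eBayes functions (all 15 CD4+ arrays, 10 residual degrees of freedom, two-sided, Benjamini-Hochberg adjusted p under 0.05). "Rose", "fell" and "called" mean that a gene passed this test. The code was tested on simulated data.

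Members and gene lists were chosen with earlier results of these data known. The rule named the 15 largest rises and 15 largest falls among called genes whose arrays did not overlap, up to 4 called members of each list by adjusted p, and 45 set genes. Further list members named in the text were chosen after their values were seen. Alternatives changed the arrays fitted, the filter, the scaling, the probe set rule, the threshold, array weights, trended and robust variances and the replicate block, and left out each array in turn. Dropping tolerised arrays 1 and 2, and keeping only genes not above the CD4+ primed level in CD11c+ cells, were added after seeing the data. Arrays carry no scan date or batch in the tables used here.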

Additional observations from a re-analysis of the deposited data

How the results depend on the processing

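Of 1514 called genes, 644 higher and 870 lower, the fit on the 6 arrays alone called 822 (338 higher, 484 lower), of which 771 were shared, and an adjusted p under 0.01 left 748 (319 higher, 429 lower). Leaving out 1 array at a time gave 997 to 1580 calls, 407 to 801 higher and 577 to 919 lower; the lowest total came without tolerised array 1 and the lowest count of falls without primed array 1. In alternatives chosen after seeing the data, dropping tolerised arrays 1 and 2 gave 688 calls (194 higher, 494 lower, 544 shared), with fewer samples, and keeping only genes not above the CD4+ primed level on the CD11c+ arrays gave 856 calls (181 higher) among 5843 genes tested. Centring moved the share of higher calls to 59.5%, against 42.5% of the calls as reported; elsewhere the cause of a shift was not tested. Same-numbered tolerised and primed arrays correlated in their deviations at 0.058, -0.089 and -0.018, so the numbers were not taken as pairs, and the replicate block gave 1398 calls, 1342 of them shared. Of 136 named genes called, 123 kept the call whichever single array was left out, and 21 lost it on the 6 arrays alone, 38 without tolerised arrays 1 and 2, 5 after centring and 2 with the replicate block. Signs turned for genes that were not called over all arrays. Foxp3 was at 0.0123 without tolerised array 1, 0.2438 without primed array 1 and 0.1443 without primed array 3, and at -0.6922 without primed array 2, where it was called lower (adjusted p = 0.0387). Itgae was at -0.0923 without tolerised array 2, -0.1398 without primed array 2 (at most 0.5327 with 1 array left out) and -0.2783 without tolerised arrays 1 and 2, where Cd28 was at -0.0293.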
